A study of Mus musculus with 2 samples.

Results

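Leukemia cells in which both *Hoxa9* and *Meis1* transcripts were caught were taken from a single-cell RNA-seq study of acute myeloid leukemia driven by *MLL-AF9* in mice. A cell was chosen by its own UMI counts (a unique molecular identifier tags 1 captured transcript molecule): 500 or more detected genes, 1 or more UMI of *Hoxa9* and 1 or more UMI of *Meis1*. Of 8309 deposited cells, 7411 had 500 or more genes and were kept, and 224 of these carried both transcripts. They are called members below. The comparison group was the 5059 kept cells with neither transcript, and another 1681 kept cells had *Hoxa9* alone and 447 had *Meis1* alone.

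The study asked what loss of *Kat2a*, a histone acetyltransferase gene, does to transcript levels and their spread between cells in this leukemia. Both groups came from *Kat2a* Flox/Flox donor mice given pIpC, which turns on Mx1-Cre where it is carried, with marrow taken 4 to 6 weeks later, transduced with an *MLL-AF9* retrovirus and grown in irradiated recipients. *Kat2a* WT donors were Mx1-Cre -/- and *Kat2a* KO donors were Mx1-Cre +/-. Leukemias were pooled by genotype, 5 for WT and 4 for KO, sorted as live single cells carrying the YFP reporter, and captured as 1 10x Genomics 3′ library per genotype. The leukemias within a pool were not labelled one by one, so how members divide among them is not known, and Mx1-Cre acts in interferon-responsive cells rather than in 1 lineage. No difference between genotypes has a replicate check, and no test was run on cells. Intervals are exact at 95%, Poisson for summed UMIs and Clopper-Pearson for shares of cells, and they cover counting error only. For a number of cells found over a number expected or a product, the interval is Poisson and takes the latter number as fixed.

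After the filter the WT-labelled library held 3866 cells with 11669427 UMIs (median 2588.5 UMIs and 1050.5 genes per cell), and the KO-labelled library held 3545 cells with 7920256 UMIs (median 1884 UMIs and 819 genes). Which barcodes belong to which genotype is not in the labels and follows the study's own assignment, so WT-labelled and KO-labelled name that assignment. *Kat2a* ran against the labels among members too, at 10.9 CPM (counts per 1000000 UMIs; 4.71 to 21.5, 8 UMIs) in the WT-labelled library and 105 CPM (65.0 to 160.4, 21 UMIs) in the KO-labelled library. Over all kept cells it stood at 12.2 CPM (10.2 to 14.3) and 95.8 CPM (89.1 to 103). Per the study the excised transcript keeps its last exon, where 3′ reads fall, so this level does not measure the excision. Why it was higher under the KO label was not tested, and the labels were not checked by it. In all, 28 barcodes occurred in both libraries. Among them was 1 member of the WT-labelled library, whose barcode belonged to no member of the KO-labelled library.

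HOXA9 and MEIS1 are homeodomain proteins that bind DNA as partners, often together with PBX proteins. Their genes are active in blood stem and early progenitor cells and are turned down as granulocytes and monocytes mature. MLL fusion proteins such as MLL-AF9 keep both genes on, and the pair is known for driving self-renewal of myeloid leukemia cells. In the GENCODE M21 annotation (GRCm38), *Hoxa9* lies on the minus strand at chr6:52223100-52231089 inside the *Hoxa* cluster, next to *Hoxa10* at chr6:52231197-52240854. *Meis1* lies on the minus strand at chr11:18879817-19018985. A 3′ library reads the end of each transcript, so it reports the gene and not which isoform was made.

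Members made up 167 of 3866 kept cells in the WT-labelled library (4.32%, 3.70 to 5.01%) and 57 of 3545 in the KO-labelled library (1.61%, 1.22 to 2.08%). Most carried few copies. Their *Hoxa9* count ran from 1 to 6 UMIs in the WT-labelled library and from 1 to 13 in the KO-labelled library, with a median of 1 in each. The *Meis1* count ran from 1 to 4 and from 1 to 2, also with a median of 1. At the limit of the rule, 80 of 167 members (47.9%) and 35 of 57 (61.4%) held exactly 1 UMI of each transcript, and the cells just outside it held 0 of either. Only 17 members of the WT-labelled library and 1 of the KO-labelled library had 2 or more of both.

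Summed over members, *Hoxa9* stood at 412 CPM (302 UMIs) in the WT-labelled library and at 480 CPM (96 UMIs) in the KO-labelled library. In cells with *Hoxa9* alone it stood at 437 and 523 CPM. *Meis1* stood at 277 CPM (203 UMIs) and 320 CPM (64 UMIs) in members, and at 377 and 453 CPM in cells with *Meis1* alone. These levels are set by the rule and are given only as a description. Over all kept cells *Hoxa9* reached 179 CPM (172 to 187) and 120 CPM (113 to 128), and *Meis1*, the scarcer transcript, 44.1 CPM (40.4 to 48.1) and 37.9 CPM (33.7 to 42.4).

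Members were deep cells. With *Hoxa9* and *Meis1* left out, their median was 4253 UMIs (range 1074 to 11798) in the WT-labelled library and 3092 UMIs (910 to 10814) in the KO-labelled library. Cells with *Hoxa9* alone had medians of 3502.5 and 2231 UMIs, cells with *Meis1* alone 3007.5 and 2059, and cells with neither 2191 and 1778.5. The order was the same in both libraries. More than 2 times the median UMIs of its own library was held by 28.7% of members in the WT-labelled library, against 10.5% of all its kept cells, and by 36.8% in the KO-labelled library, against 10.0%. Doublets were kept, no caller was applied here, and their part in the depth of members was not tested.

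The share of members rose with depth in each library. In the shallowest decile of cells it was 0.517% (0.0626 to 1.85%) in the WT-labelled library and 0.563% (0.0683 to 2.02%) in the KO-labelled library. In the deepest decile it was 11.9% (8.86 to 15.6%) and 5.93% (3.71 to 8.93%). The share of cells with *Hoxa9* rose along the same deciles from 7.49% to 64.8% and from 10.7% to 36.7%, and the share with *Meis1* from 6.46% to 19.7% and from 5.35% to 17.8%.

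**Figure D1:**
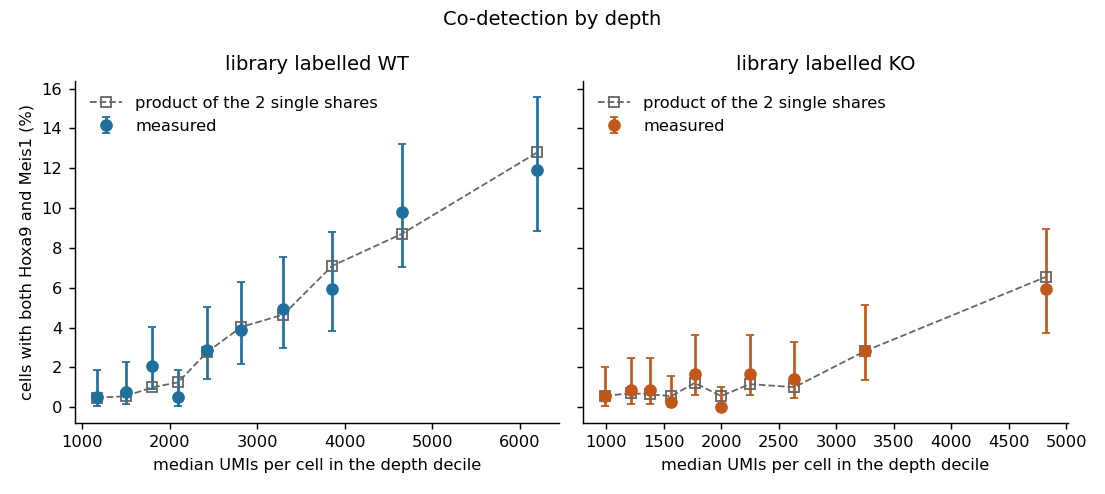
Percent of kept cells with both transcripts (filled circles, 95% binomial intervals) in deciles of cells by depth, against the median UMIs of the decile, with the product of the shares of *Hoxa9* and *Meis1* in the same decile (open squares). Left, WT-labelled library; right, KO-labelled library. The measured share climbs from 0.517% to 11.9% and from 0.563% to 5.93%, and stays beside the product.

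Co-detection was then set against the number of cells that the 2 single shares give when multiplied within 10 depth strata. In the WT-labelled library 167 cells were found and the product gave 167, a ratio of 0.998 (0.853 to 1.16). In the KO-labelled library 57 cells were found and the product gave 56.0, a ratio of 1.02 (0.771 to 1.32). With no strata the ratios were 1.24 (1.06 to 1.44) and 1.21 (0.917 to 1.57). An excess over the product was therefore not detectable once depth was held, and the intervals leave room for one of up to 1.16 and 1.32 times.

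The same held after each cell was thinned to 1000 UMIs drawn without replacement, which left out 66 cells of the WT-labelled library and 194 of the KO-labelled library. Only 20 of 3800 cells (0.526%, 0.322 to 0.812%) and 11 of 3351 cells (0.328%, 0.164 to 0.587%) then carried both transcripts. The products were 22.5 and 11.9 cells, and the ratios were 0.888 (0.543 to 1.37) and 0.922 (0.460 to 1.65). Most members were thus members only at their full depth.

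The level of *Meis1* was also read by the number of *Hoxa9* UMIs. *Meis1* stood at 45.6 CPM (40.7 to 50.9) in cells of the WT-labelled library with no *Hoxa9* UMI, at 39.7 CPM (32.5 to 48.1) with 1, and at 45.0 CPM (36.5 to 54.8) with 2 or more. In the KO-labelled library the values were 38.8 (34.0 to 44.1), 37.1 (27.3 to 49.3) and 29.9 CPM (17.4 to 47.9). These intervals overlap throughout. *Hoxa10*, the neighbour of *Hoxa9*, went from 107 CPM (99.0 to 115) with no *Hoxa9* UMI to 132 CPM (117 to 148) with 2 or more in the WT-labelled library, and from 84.3 (77.2 to 91.9) to 98.5 CPM (74.4 to 128) in the KO-labelled library. The ends of that range do not overlap in the WT-labelled library and do in the KO-labelled library. None of these levels was held for depth. With 0, 1 and 2 or more *Hoxa9* UMIs, cells had median UMIs of 2257, 3181.5 and 4160 (WT) and 1795, 2136.5 and 2785.5 (KO).

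For scale, the same ratio was computed for each of the 2 genes with all 2449 genes at 50 CPM or more in both libraries. With *Hoxa9* the median ratio was 1.01 in both libraries, with 5% of genes under 0.956 and 5% over 1.07 in the WT-labelled library (0.913 and 1.12 in the KO-labelled library). With *Meis1* the medians were 1.0 and 1.01. Co-detection of *Hoxa9* with *Meis1* therefore lay close to the middle of what either gene showed with any other gene. *Hoxa9* with *Hoxa10* gave 1.09 (0.993 to 1.20) and 1.09 (0.908 to 1.30), and *Meis1* with *Hoxa10* gave 0.981 (0.816 to 1.17) and 1.06 (0.776 to 1.40).

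Some pairs of scarce transcripts did exceed their product at this depth. These 5 pairs were picked after earlier results were seen, to show what the measure can reach. *Cd34* and *Flt3*, genes of progenitor cells, were found together in 51 cells against 19.0 (ratio 2.68, 2.00 to 3.52) and in 67 against 30.2 (2.22, 1.72 to 2.82). *Csf1r* and *F13a1*, genes of the monocyte lineage, gave 1.78 (1.46 to 2.15) and 2.63 (1.98 to 3.44). *Mmp8* and *Mmp9*, proteases of neutrophil granules, gave 1.68 (1.40 to 2.00) and 4.19 (2.90 to 5.85). *Mki67* and *Top2a*, genes of dividing cells, gave 2.13 (1.83 to 2.46) and 1.44 (0.865 to 2.24). *Cxcr2* and *Il1b* were too scarce to read, with 1 and 0 cells holding both.

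At shared depth the KO-labelled library still held fewer members. At the shares that the WT-labelled library had in 20 common depth strata, the KO-labelled library would have held 89.6 members (2.53%), and it held 57, a ratio of 0.636 (0.482 to 0.825). This interval takes 89.6 as fixed and leaves out the counting error of the WT-labelled shares, so it is too narrow. After thinning to 1000 UMIs the shares of 0.526% and 0.328% had overlapping intervals. In thinned cells *Hoxa9* was found in 14.5% (13.4 to 15.7%) against 9.70% (8.72 to 10.8%), and *Meis1* in 4.08% (3.47 to 4.76%) against 3.67% (3.06 to 4.36%). The intervals of *Hoxa9* do not overlap and those of *Meis1* do. Genotype, pool and capture cannot be told apart in these differences.

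A UMI in a droplet can also come from free RNA. The 10% of cells richest in secondary and tertiary granule transcripts, which mark granulocytes that have begun to mature, was taken for comparison. Both genes are turned down as normal granulocytes mature. The cells here were sorted for the reporter of *MLL-AF9*, so this group is not a known negative for either gene. Thinned to 1000 UMIs, *Hoxa9* was found in 11.8% of these cells (8.77 to 15.5%) against 14.8% of the others (13.6 to 16.1%) in the WT-labelled library, and in 6.27% (3.92 to 9.42%) against 10.1% (9.03 to 11.2%) in the KO-labelled library. *Meis1* was found in 2.63% (1.27 to 4.79%) against 4.24% (3.59 to 4.97%), and in 2.09% (0.844 to 4.26%) against 3.85% (3.19 to 4.60%). Median depth was 2301.5 UMIs against 2707.5 and 1841 against 1956.5. Summed at full depth, *Hoxa9* was at 129.9 CPM (108 to 155) in granule-rich cells against 184 CPM (176 to 192) in the others, and at 81.3 (61.4 to 106) against 123 CPM (115 to 131), with no overlap in either library. *Meis1* was at 34.9 (24.0 to 49.0) against 44.9 CPM (41.0 to 49.1), and at 26.1 (15.5 to 41.3) against 38.3 CPM (33.9 to 43.1). Both transcripts were thus still found in granule-rich cells, *Hoxa9* at a lower level, and 12 members of the WT-labelled library and 2 of the KO-labelled library were among them. How much of the detection is free RNA was not tested.

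To compare what else the cells expressed, each member was matched to the 3 unused cells with neither transcript nearest in UMIs, within 10% of its total. This gave 161 members and 483 matched cells in the WT-labelled library (median 4060 and 4045 UMIs) and 56 members and 168 matched cells in the KO-labelled library (3053 and 3050 UMIs). The remaining 6 and 1 members had too few cells near them and were left out. Ratios are log2 of the summed CPM of members over that of matched cells, *Hoxa9* and *Meis1* left out of the totals. A gene is said to be apart when this ratio, with a prior of 1 UMI, passes 1.5-fold. The median gene sat at 0.00 and -0.03.

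Few genes set members apart in both libraries. Of 2449 genes tested, 4 were higher in members of both libraries (0.163% of genes), 6 were lower in both (0.245%), and 7 were apart in opposite directions (0.286%). In the WT-labelled library alone 29 genes were higher and 32 lower, and in the KO-labelled library, with fewer members, 178 and 244. The 10 genes called in both were 16.4% of the calls of the WT-labelled library and 2.37% of those of the KO-labelled library. The ratio had the same sign in both libraries for 50.2% of genes. Across the 2449 genes, which share cells and totals and are not replicates, the ratios of the libraries had a Pearson r of -0.08, and over the 301 genes at 500 CPM or more r was -0.11.

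**Figure D2:**
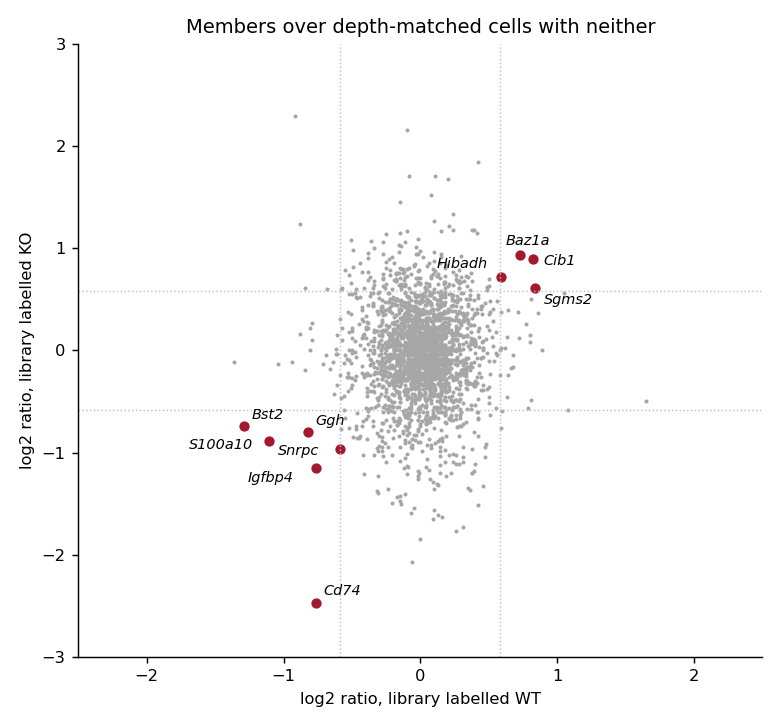
Log2 ratio of each of 2448 tested genes in members over depth-matched cells with neither transcript, WT-labelled library on the x axis and KO-labelled library on the y axis (1 gene lies outside the axes). Dotted lines mark 1.5-fold. The cloud is wider for the KO-labelled library, which has fewer members, and has no slope; the 10 genes past 1.5-fold the same way in both are named.

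The 4 genes higher in members were of unrelated function. *Cib1*, which encodes a calcium- and integrin-binding protein, stood at 177 CPM in members against 100 CPM in matched cells of the WT-labelled library (0.82, 0.48 to 1.16) and at 185 against 98.9 CPM in the KO-labelled library (0.90, 0.25 to 1.54). *Baz1a*, a subunit of ACF chromatin remodellers, stood at 311 against 187 CPM (0.73, 0.48 to 0.98) and at 238 against 124 CPM (0.94, 0.37 to 1.51). At 1000 UMIs per cell *Baz1a* was found in 28.6% of members against 16.6% of matched cells and in 25.9% against 8.02%, and *Cib1* in 13.7% against 9.73% and in 18.5% against 6.79%.

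*Sgms2*, a sphingomyelin synthase gene, was at 78.9 against 43.9 CPM (0.85, 0.33 to 1.36) and at 68.7 against 44.2 CPM (0.64, -0.45 to 1.66), so its interval in the KO-labelled library includes 0. *Hibadh*, an enzyme of valine breakdown, was at 116 against 76.6 CPM (0.60, 0.19 to 1.0) and at 159 against 95.4 CPM (0.73, 0.04 to 1.40). At 1000 UMIs per cell *Sgms2* was found in 4.97% of members against 5.18% of matched cells and in 7.41% against 5.56%, and *Hibadh* in 8.70% against 7.45% and in 16.7% against 8.02%. *Cib1*, *Baz1a*, *Sgms2* and *Hibadh* stayed above 0 in both libraries under each of the 7 alternatives tried for single genes (6 for *Sgms2* in the KO-labelled library). These genes were chosen for passing 1.5-fold in the same members, which the alternatives reuse in whole or in part. Staying above 0 is therefore not separate support. They did not always pass 1.5-fold, and 1 of them was called again without matching and 2 at 1000 UMIs. In the WT-labelled library 1 member held 15.1% of the members' *Cib1* UMIs and 1 held 14.1% of their *Hibadh* UMIs. The lowest ratios of these 2 genes there were 0.43 and 0.24.

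Among the 6 lower genes, *S100a10*, which encodes the partner of annexin A2, was at 95.3 CPM in members against 207 CPM in matched cells (-1.12, -1.52 to -0.73) and at 95.2 against 178 CPM (-0.91, -1.72 to -0.17). *Bst2*, an interferon-induced gene that encodes tetherin, was at 28.3 against 70.1 CPM (-1.31, -2.08 to -0.61) and at 52.9 against 90.1 CPM (-0.77, -1.91 to 0.23). *Snrpc*, a U1 small nuclear ribonucleoprotein gene, was at 104 against 157 CPM (-0.59, -0.98 to -0.21) and at 143 against 283 CPM (-0.99, -1.63 to -0.39).

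*Ggh*, a gene of folate metabolism, was at 49.1 against 87.2 CPM (-0.83, -1.41 to -0.28) and at 47.6 against 84.8 CPM (-0.83, -2.05 to 0.21). *Igfbp4*, an insulin-like growth factor binding protein gene, was at 55.1 against 93.8 CPM (-0.77, -1.32 to -0.25) and at 26.4 against 61.8 CPM (-1.23, -2.93 to 0.13). *Cd74*, the invariant chain of MHC class II, rests on 2 member UMIs against 11 (-0.90, -4.11 to 1.30) in the WT-labelled library and 6 against 106 (-2.56, -4.04 to -1.39) in the KO-labelled library. The top matched cell of the KO-labelled library held 42.7% of all UMIs of the MHC class II and dendritic cell list. Under the alternatives *S100a10* and *Bst2* each went above 0 in 1 of 6 in the KO-labelled library. *Cd74* did so in 3 of 6 in the WT-labelled library and in 1 of 5 in the KO-labelled library. *Snrpc*, *Ggh* and *Igfbp4* stayed below 0. The lower genes too were chosen in the same members, so this is not separate support.

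Gene lists for the program of MLL leukemias, for partners of the 2 proteins and for myeloid cell types were then summed. The MLL leukemia program is a list of 15 genes that stay on in MLL-rearranged leukemia (*Hoxa9* and *Meis1* not among them). It was at 1693 CPM (1596 to 1794) in members against 1335 CPM (1285 to 1387) in matched cells of the WT-labelled library, a log2 ratio of 0.34 (0.24 to 0.44). In the KO-labelled library it was at 1830 CPM (1642 to 2033) against 1608 CPM (1505 to 1716), a ratio of 0.19 (0.00 to 0.37). Per cell, the median share of UMIs was 0.163% in members against 0.116% in matched cells, and 0.182% against 0.157%. Neither ratio reached 1.5-fold, and the cells overlapped over nearly their whole range.

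Of the 15 genes of this program 7 were tested, none was past 1.5-fold in both libraries, 4 were above 0 in both and none was below 0 in both. *Mef2c*, a transcription factor gene tied to MLL leukemia stem cells, was at 366 against 258 CPM (0.50, 0.28 to 0.73) and at 381 against 330 CPM (0.20, -0.21 to 0.60). *Lmo2*, a bridging factor of blood stem cell complexes, was at 557 against 416 CPM (0.42, 0.24 to 0.60) and at 651 against 569 CPM (0.19, -0.12 to 0.50). *Cdk6* was at 118 against 92.3 CPM (0.35, -0.05 to 0.74) and at 122 against 88.3 CPM (0.46, -0.32 to 1.20). *Eya1*, a transcriptional cofactor, was at 65.5 against 47.9 CPM (0.45, -0.10 to 0.98) and at 79.3 against 58.3 CPM (0.44, -0.54 to 1.37). *Myb* was nearly level, at 168 against 157 CPM and 143 against 147 CPM. *Cdk6*, *Eya1* and *Myb* were named beyond the 2 genes with most UMIs. *Mef2c*, *Lmo2*, *Cdk6* and *Eya1* are all of the 4 above 0 in both libraries, and the rest of the 7, *Myb* among them, were not.

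**Figure D3:**
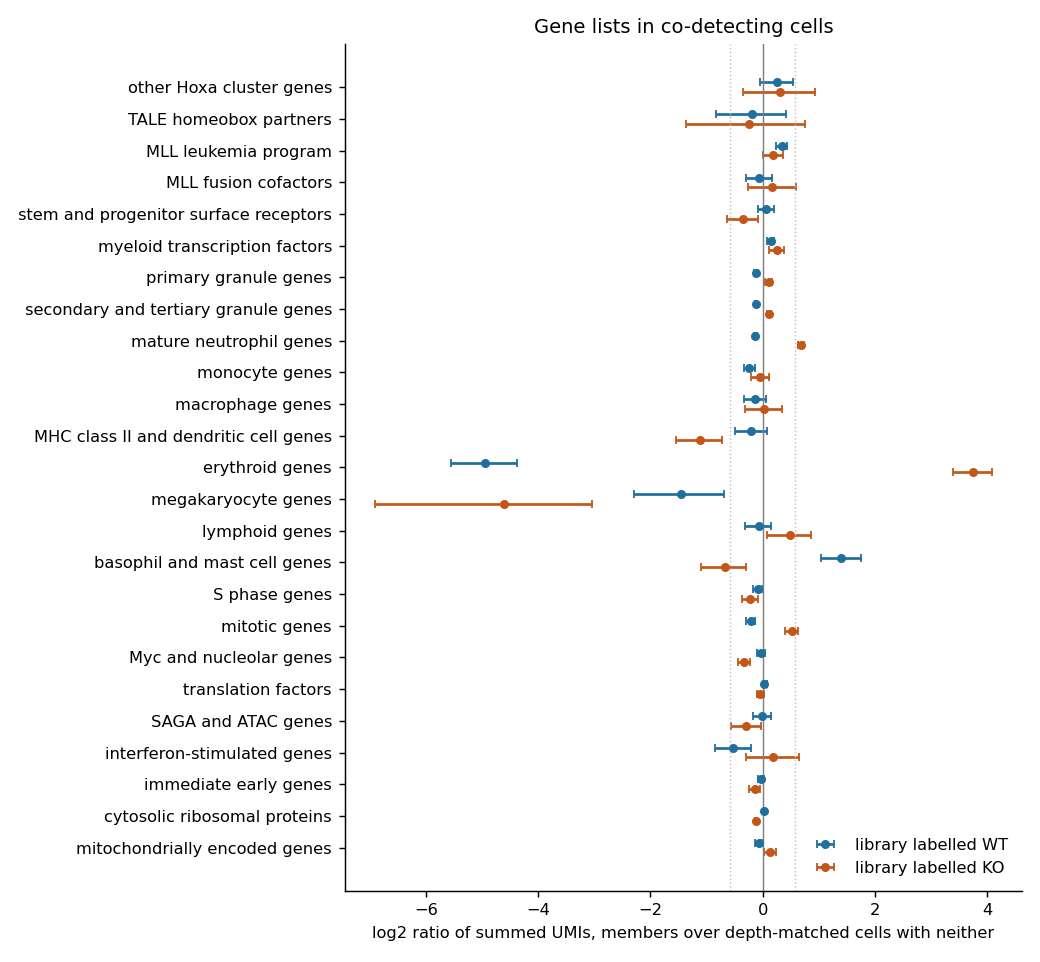
Log2 ratio of summed UMIs of 25 gene lists, members over depth-matched cells with neither transcript, with exact 95% counting intervals, for the WT-labelled library (blue) and the KO-labelled library (orange). Dotted lines mark 1.5-fold. The MLL leukemia program lies above 0 in both at 0.34 and 0.19, and the far points of the erythroid list (-4.94 and 3.74) rest on single cells.

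The other *Hoxa* genes, which lie in the same cluster as *Hoxa9*, summed to 207 CPM (174 to 244) in members against 174 CPM (156 to 193) in the WT-labelled library (0.25, -0.04 to 0.54), and to 164 CPM (111 to 233) against 133 CPM (104 to 166) in the KO-labelled library (0.31, -0.35 to 0.93). *Hoxa10* gave 121 against 99.8 CPM (0.27, -0.12 to 0.65) and 95.2 against 58.3 CPM (0.71, -0.21 to 1.58). Without the 10 cells of each group with most *Hoxa10* UMIs, its ratio in the KO-labelled library was -0.80. *Hoxa7* gave 64.0 against 63.5 CPM (0.01, -0.52 to 0.52) and 52.9 against 56.5 CPM (-0.10, -1.29 to 0.96). The other 8 genes of the list were under the limit of 50 CPM.

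Partners of the pair were too scarce to read one by one. The TALE homeobox genes other than *Meis1*, which include the PBX genes, summed to 44.7 CPM (30 UMIs) against 50.9 CPM (-0.19, -0.83 to 0.41) and to 58.2 CPM (11 UMIs) against 68.9 CPM (-0.24, -1.36 to 0.75), and none of the 10 was tested. *Pbx3*, a known partner of HOXA9 in leukemia, had 6 member UMIs in the WT-labelled library and 1 in the KO-labelled library. The cofactors that MLL fusions use, such as menin and DOT1L, summed to 323 against 338 CPM (-0.06, -0.29 to 0.16) and to 344 against 306 CPM (0.17, -0.26 to 0.59). Of these 16 genes only *Cdk9*, the kinase of P-TEFb, was tested, at -0.07 and 0.13.

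Myeloid transcription factors made 4022 CPM against 3654 CPM (0.14, 0.07 to 0.20) and 3416 against 2878 CPM (0.25, 0.11 to 0.38). None of the 6 tested was apart in both libraries, and 3 were above 0 in both. *Spi1*, which encodes PU.1, was at 716 against 581 CPM (0.30, 0.15 to 0.46) and at 767 against 482 CPM (0.67, 0.37 to 0.96). *Cebpb* was at 1730 against 1606 CPM (0.11, 0.01 to 0.20) and at 1359 against 1208 CPM (0.17, -0.04 to 0.38). *Cebpe*, a regulator of granule genes, was at 621 against 501 CPM (0.31, 0.14 to 0.48) and at 381 against 364 CPM (0.07, -0.34 to 0.46). *Irf8*, a factor of monocyte fate, went -0.42 (-0.76 to -0.09) in the WT-labelled library and 0.30 (-0.47 to 1.02) in the KO-labelled library.

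Stem and progenitor receptors were not higher in members. Their sum was 741 against 713 CPM (0.06, -0.09 to 0.20) and 762 against 972 CPM (-0.35, -0.63 to -0.08). *Cd34*, a marker of progenitor cells that was under the limit for testing, was at 23.8 CPM in members against 41.3 CPM in matched cells (-0.80, -1.67 to -0.01) and at 84.6 against 133 CPM (-0.65, -1.53 to 0.15). *Flt3* gave 0.10 (-0.80 to 0.92) and -0.66 (-2.08 to 0.55). *Csf2ra*, a subunit of the GM-CSF receptor, was at 265 against 259.6 CPM (0.03, -0.22 to 0.28) and at 227 against 244 CPM (-0.10, -0.63 to 0.40).

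Granule genes encode the proteases and antimicrobial proteins that granulocytes store. Primary granule genes made 20233 CPM in members against 21964 CPM in matched cells of the WT-labelled library (-0.12, -0.15 to -0.09) and 17388 against 16107 CPM in the KO-labelled library (0.11, 0.05 to 0.17). Secondary and tertiary granule genes made 58382 against 63397 CPM (-0.12, -0.14 to -0.10) and 46363 against 42675 CPM (0.12, 0.08 to 0.15). The spread between cells was far wider than these gaps. The share of secondary and tertiary granule UMIs ran from 0 to 23.7% over members of the WT-labelled library (median 4.51%, against 4.15% in matched cells) and from 0.0765 to 22.6% over those of the KO-labelled library (2.37%, against 1.33%).

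Mature neutrophil genes differed between libraries. They made 25178 CPM in members against 27480 CPM in the WT-labelled library (-0.13, -0.15 to -0.10), and 26003 against 16208 CPM in the KO-labelled library (0.68, 0.63 to 0.73). *S100a8*, a subunit of calprotectin, was at 13835 against 15307 CPM (-0.15) and at 16584 against 10160 CPM (0.71, 0.64 to 0.77). *S100a9*, the other subunit, gave -0.11 and 0.63. In members of the KO-labelled library 1 cell held 11.2% of the list's UMIs. Against all cells with neither transcript, where depth was not held, the list stood at -0.26 there. Over 11 alternatives its ratio in that library was above 0 in 9 and below 0 in 2, and the cause was not tested.

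Monocyte genes were at 1801 against 2122 CPM (-0.24, -0.33 to -0.14) and 2036 against 2101 CPM (-0.05, -0.21 to 0.12), and none of the 7 tested was apart in both. *Ly6c2* gave -0.28 (-0.40 to -0.15) and -0.07 (-0.32 to 0.18). Macrophage genes gave -0.14 (-0.34 to 0.06) and 0.02 (-0.31 to 0.34). MHC class II and dendritic cell genes gave -0.21 (-0.49 to 0.07) and -1.12 (-1.54 to -0.72), with 1 of 3 tested genes, *Cd74*, lower in both.

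Lists of other blood lineages rested on single cells. Erythroid genes were at 38.7 against 1187 CPM (-4.94, -5.56 to -4.38) in the WT-labelled library, where 1 matched cell held 94.1% of the UMIs, and at 2142 against 161 CPM (3.74, 3.40 to 4.08) in the KO-labelled library, where 1 member held 98.8%. That member carried 199 of the 200 UMIs of *Hbb-bs*, a beta-globin gene. The list was at 0 in 155 of 161 and 51 of 56 members. Megakaryocyte genes, the only list past 1.5-fold the same way in both libraries, had 16 UMIs in members against 129 (-1.45, -2.30 to -0.69) and 3 against 220 (-4.61, -6.90 to -3.05). Here 1 matched cell held 75.2% and 69.1% of the UMIs, *Pf4* and *Ppbp* were at 0 in members, and 152 of 161 and 53 of 56 members had none of the list.

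Basophil and mast cell genes gave 1.39 (1.04 to 1.75) and -0.68 (-1.09 to -0.30). *Mcpt8*, a basophil protease, made 112 member UMIs in the WT-labelled library, of which 1 cell held 42.9%, and 58 in the KO-labelled library, of which 1 cell held 62.1%. In each library 145 of 161 and 52 of 56 members had no UMI of the list. Lymphoid genes gave -0.07 (-0.31 to 0.15) and 0.48 (0.08 to 0.87).

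Among cell cycle genes, the mitotic list also went opposite ways in the libraries. Mitotic genes were at 2531 CPM (2412 to 2654) in members against 2925 CPM (2850 to 3001) in matched cells of the WT-labelled library (-0.21, -0.29 to -0.13), and at 5045 CPM (4730 to 5376) against 3528 CPM (3375 to 3686) in the KO-labelled library (0.52, 0.40 to 0.63). The median cell held 0.0676% against 0.0855% of its UMIs in this list, and 0.331% against 0.135%. *Ube2c*, which feeds the anaphase-promoting complex, was at 228 against 297 CPM (-0.39, -0.65 to -0.13) and at 587 against 313 CPM (0.91, 0.55 to 1.26). *Aurka*, a spindle kinase gene, gave -0.02 (-0.60 to 0.53) and 1.11 (0.43 to 1.78), and *Cenpa*, the centromeric histone, -0.38 (-0.69 to -0.09) and 0.77 (0.43 to 1.12). *Ube2c*, *Aurka* and *Cenpa* were picked after their values were seen, for standing far apart. The 2 mitotic genes with most UMIs stood closer, with *Cks2* at -0.24 and 0.47 and *Birc5*, which encodes survivin, at -0.06 (-0.30 to 0.18) and 0.29 (-0.08 to 0.65).

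S phase genes made 2547 against 2719 CPM (-0.09, -0.17 to -0.02) and 2877 against 3378 CPM (-0.23, -0.37 to -0.09), with 9 of 14 tested genes below 0 in both libraries. *Rrm2*, a subunit of ribonucleotide reductase, gave 0.08 (-0.14 to 0.30) and -0.30 (-0.72 to 0.09). Myc and nucleolar genes gave -0.03 (-0.10 to 0.04) and -0.33 (-0.44 to -0.22), with *Ran* at 0.10 and -0.43 and *Npm1* at -0.03 and -0.25. Of the 12 tested, 6 were below 0 in both.

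**Figure D4:**
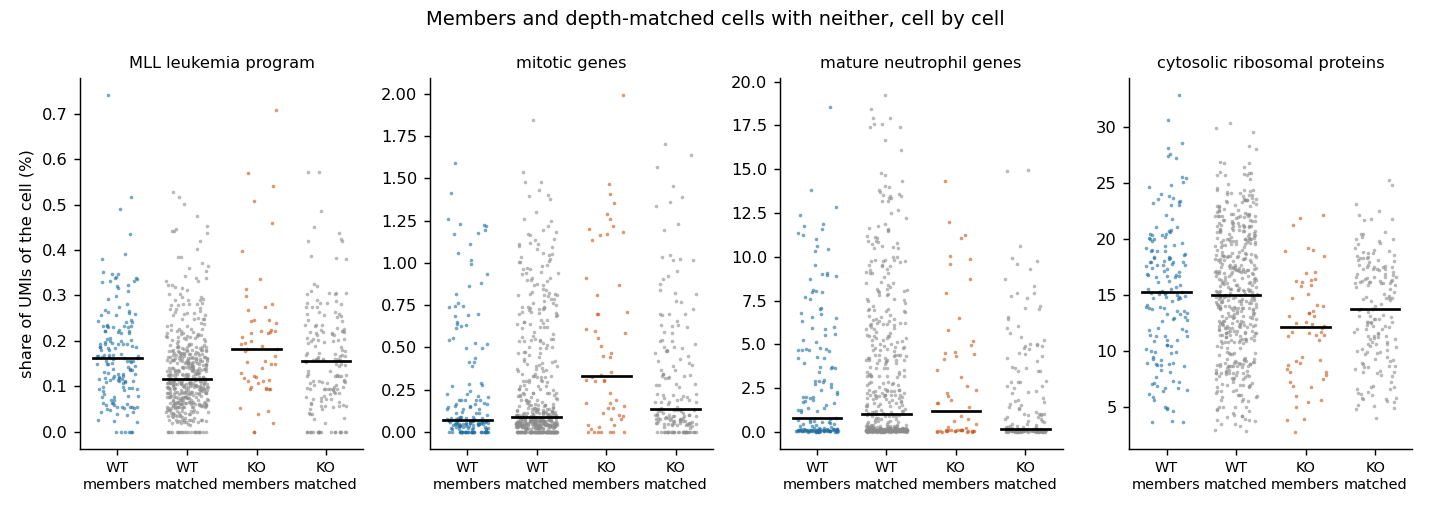
Share of UMIs of each cell (%) in 4 gene lists, for members (coloured) and depth-matched cells with neither transcript (grey) of the WT-labelled and KO-labelled libraries; each dot is a cell and bars are medians. Members overlap their matched cells in every panel, and the medians differ by the largest factors for mitotic genes (0.331% against 0.135%) and mature neutrophil genes (1.17% against 0.184%) in the KO-labelled library.

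Housekeeping lists differed little. Cytosolic ribosomal protein genes made 162520 against 159673 CPM (0.03, 0.02 to 0.04) and 133099 against 144807 CPM (-0.12, -0.14 to -0.10), and none of 79 tested was apart in both. Translation factors gave 0.03 and -0.04, mitochondrially encoded genes -0.07 and 0.13, and immediate early genes such as *Fos* and *Dusp1* -0.03 and -0.14. Interferon-stimulated genes, of interest because the donors received pIpC, gave -0.52 (-0.85 to -0.20) and 0.18 (-0.30 to 0.65), with *Bst2* the 1 of 2 tested that was lower in both. Genes of SAGA and ATAC, the complexes that hold KAT2A, gave -0.01 (-0.17 to 0.14) and -0.29 (-0.57 to -0.03). *Kat2a* itself had 6 UMIs in matched members of the WT-labelled library (-0.61, -2.17 to 0.70) and 18 in those of the KO-labelled library (-0.18, -1.03 to 0.60). *Xist*, the RNA that coats the inactive X chromosome of female cells, gave 0.00 (-0.24 to 0.24) and 0.31 (-0.60 to 1.16).

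Where members lay along differentiation was read from quintiles of cells ordered by list content at 1000 UMIs, with the number of members expected from the depth of the cells in each quintile. Along secondary and tertiary granule genes, the poorest quintile held 44 members against 40.7 expected in the WT-labelled library and 14 against 14.3 in the KO-labelled library. The richest quintile held 20 against 24.0 (ratio 0.834, 0.509 to 1.29) and 6 against 8.88 (0.675, 0.248 to 1.47). Along primary granule genes the richest quintile gave 0.876 (0.650 to 1.15) and 0.669 (0.306 to 1.27), and along monocyte genes 0.750 (0.458 to 1.16) and 1.01 (0.460 to 1.91). All these intervals include 1.

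Along mitotic genes 1965 of 3800 and 1357 of 3351 cells held no UMI of the list, so the poorest quintiles split cells that were tied. The richest quintile held 37 members against 47.9 expected in the WT-labelled library (0.772, 0.544 to 1.06) and 26 against 14.3 in the KO-labelled library (1.82, 1.19 to 2.66). That interval left out 1, and those of the other quintiles of the 4 lists included it. The call was lost at both other depths, with 1.57 (0.992 to 2.35) when cells were not thinned and 1.68 (0.894 to 2.87) at 2000 UMIs. At 2000 UMIs another interval left out 1, that of the poorest primary granule quintile of the KO-labelled library, with 2 members against 7.31 expected (0.274, 0.0331 to 0.988). The level of *Hoxa9* differed along several of these lists. The levels of *Hoxa9* and *Meis1* here were not held for depth, and the quintiles differed in it. From the poorest to the richest quintile, median UMIs went from 2237 to 3504.5 (WT) and 1654 to 2460 (KO) along mitotic genes. Along primary granule genes they went from 1791.5 to 4105.5 and from 1589 to 2329.5. Along secondary and tertiary granule genes they went from 3041.5 to 2339 and from 1925 to 1892. The part of depth was not tested. From the poorest to the richest mitotic quintile *Hoxa9* went from 161 CPM (144 to 180) to 216 CPM (199 to 233) in the WT-labelled library, and from 95.6 (79.7 to 114) to 155 CPM (138 to 174) in the KO-labelled library. Along primary granule genes it went from 137 (119 to 157) to 204 CPM (189 to 219.7) and from 100.4 (83.8 to 119) to 129.9 CPM (114 to 148). Between the end quintiles of secondary and tertiary granule genes it went the other way, from 181 (165 to 198) to 137 CPM (121 to 154) and from 134 (117 to 152) to 102 CPM (86.3 to 120.4). It did not fall steadily along the list, since quintile 4 stood at 204 (185 to 224) and 136 CPM (117 to 156). In the KO-labelled library the end intervals of *Hoxa9* overlap along both granule lists. *Meis1* along that list went from 46.0 (38.2 to 55.0) to 36.4 CPM (28.4 to 45.9) and from 49.0 (39.1 to 60.5) to 25.6 CPM (17.9 to 35.4), with no overlap in the KO-labelled library. *Meis1* in the poorest and richest mitotic quintiles stood at 39.5 (31.1 to 49.3) and 40.6 CPM (33.6 to 48.6), and at 44.8 (34.1 to 57.8) and 42.5 CPM (33.7 to 52.9).

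**Figure D5:**
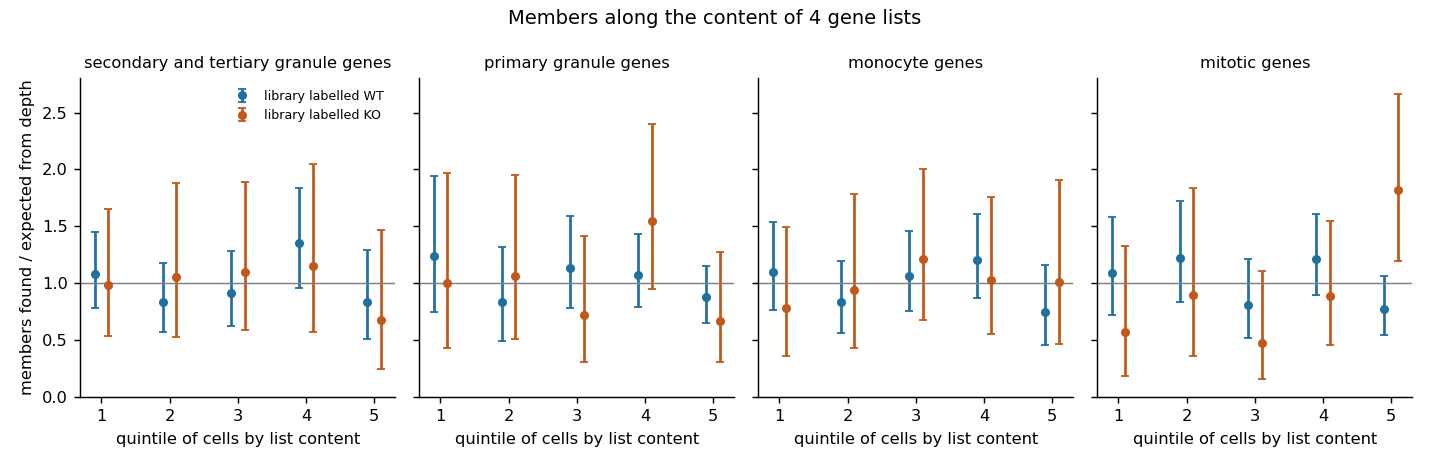
Members found over members expected from depth (y axis) in quintiles of cells ordered by the content of 4 gene lists at 1000 UMIs (x axis, poorest to richest), with exact 95% Poisson intervals, for the WT-labelled library (blue) and the KO-labelled library (orange). The horizontal line is 1; the richest mitotic quintile of the KO-labelled library stands at 1.82 and every other interval at this depth crosses the line, as does that of the same quintile at 2000 UMIs (0.894 to 2.87) and without thinning (0.992 to 2.35).

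Members were last set against cells with 1 of the 2 transcripts, matched 1 to 1 on depth. Against cells with *Hoxa9* alone, 11 genes were higher in both libraries (0.449% of 2449) and 10 lower (0.408%), with 26 apart in opposite directions. Against cells with *Meis1* alone, 24 were higher (0.980%), 6 lower (0.245%) and 25 opposite. Of the genes called against cells with neither, 1 of the higher and 3 of the lower were called again for *Hoxa9* alone, and 1 and 2 for *Meis1* alone.

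*Baz1a* was at 306 against 205 CPM (0.58, 0.27 to 0.89) and 230 against 105 CPM (1.13, 0.36 to 1.95) against cells with *Hoxa9* alone, and gave 0.38 (0.07 to 0.69) and 0.91 (0.16 to 1.69) against *Meis1* alone. *Cib1* was at 177 against 97.0 CPM (0.87, 0.44 to 1.31) and 185 against 95.1 CPM (0.96, 0.13 to 1.84) in the same contrast, and gave 0.69 (0.25 to 1.15) and 1.04 (0.17 to 1.97) against *Meis1* alone. The MLL leukemia program gave 0.21 (0.10 to 0.33) and 0.09 (-0.13 to 0.31) against *Hoxa9* alone, and 0.29 (0.16 to 0.42) and 0.27 (0.04 to 0.50) against *Meis1* alone. These contrasts share the members, so they are not separate support. Mature neutrophil genes gave 0.21 and 0.42 against *Hoxa9* alone and 0.29 and 0.49 against *Meis1* alone. Mitotic genes had opposite signs in the libraries in both contrasts, at -0.35 and 0.58 and at -0.18 and 0.45.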

How the data were processed

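The 2 libraries, each from a pool of leukemias, were analysed. The authors ran Cell Ranger and deposited 1 matrix of UMI counts for 27998 genes and 8309 cells, together with gene and barcode tables (other, names only). Their processing notes name version 1.3.1 and mm10. Libraries were told apart by the number ending each barcode, 1 for KO and 2 for WT, which is the study's own use and is not in the labels. The members, lists and tests were chosen with earlier results of these data known.

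Cells with 500 or more genes were kept. Members were matched to 3 cells with neither transcript within 10% of total UMIs, UMIs were summed per group, and log2 ratios of CPM carry exact conditional intervals. Genes at 50 CPM or more in kept cells of both libraries were tested, and called when the ratio with a prior of 1 UMI passed 1.5-fold in both. Named genes were the 12 highest and 12 lowest called in both libraries, and per list the called genes or else the 2 with most UMIs. A gene that this rule gives is not reported here. Other listed genes are named for their role, except *Ube2c*, *Aurka* and *Cenpa*, which were picked on their values. *Cdk6* and *Eya1* complete the genes of their list above 0 in both libraries. Cells were also thinned to 1000 and 2000 UMIs (seed 1). Co-detection used 10 depth strata. Alternatives were no matching, 1 matched cell, thinning, scaling per cell, scaling to the median gene, stricter filters, and leaving out the deepest 5% of cells, members with 1 *Hoxa9* UMI or the 10 cells with most UMIs. Weighting all cells with neither to the depth of members, and leaving out the 10 cells with most UMIs of a list, were added after the data were seen. The code was tested on simulated data. The 56 symbols shared by more than 1 gene were kept apart by identifier. Python 3.11.15, numpy 2.4.6, scipy 1.17.1 and pandas 2.3.3 were used. Positions come from GENCODE M21.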

Additional observations from a re-analysis of the deposited data

Results flagged for a closer look

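Several lists and genes moved in opposite directions in members of the 2 libraries, each with a counting interval that left out 0. These differences between libraries were not tested, since there was 1 library per genotype. As log2 ratios of members over matched cells, in the WT-labelled library and then in the KO-labelled library, primary granule genes stood at -0.12 and 0.11, secondary and tertiary granule genes at -0.12 and 0.12, and mature neutrophil genes at -0.13 and 0.68. Mitotic genes stood at -0.21 and 0.52, cytosolic ribosomal protein genes at 0.03 and -0.12, and mitochondrially encoded genes at -0.07 and 0.13. Erythroid genes at -4.94 and 3.74 and basophil and mast cell genes at 1.39 and -0.68 rest on a few cells. In the KO-labelled library 1 member held 12.0% of the members' primary granule UMIs and 1 held 10.8% of their secondary and tertiary granule UMIs. Over 11 alternatives there, primary granule genes were above 0 in 8 and below in 3. Secondary and tertiary granule genes were above 0 in 6 and below in 5. The latter list was above 0 in both libraries against cells with *Hoxa9* alone (0.11 and 0.05) and with *Meis1* alone (0.11 and 0.11). Primary granule genes gave -0.16 and -0.40 against *Hoxa9* alone, and -0.09 and 0.28 against *Meis1* alone.

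Among named genes the same was seen for *Elane* (-0.19 and 0.11), *Ngp* (-0.21 and 0.13), *Chil3* (-0.05 and 0.23), *S100a8* (-0.15 and 0.71), *S100a9* (-0.11 and 0.63), *Cks2* (-0.24 and 0.47), *Hbb-bs* (-6.74 and 4.32) and *Mcpt8* (1.67 and -0.50). In the KO-labelled library 1 member held 14.5% of the members' *Elane* UMIs and 1 held 12.5% of their *Ngp* UMIs. Of 7 alternatives there, each of these 2 genes was above 0 in 4 and below in 3.

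Cells with under 500 genes, which entered no comparison, also carried both transcripts. In the WT-labelled library 203 such cells held 19 UMIs of *Hoxa9* and 12 of *Meis1*, and 1 cell held both. In the KO-labelled library 695 such cells held 57 UMIs of *Hoxa9* and 24 of *Meis1*, and 2 cells held both.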

How the results depend on the processing

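No paired analysis was possible because each genotype had 1 library and no replicate number is shared. Of 88 repeats of the main values, 56 stayed within their interval or within 1.5 times and 32 did not. The share of members, 4.32% and 1.61%, was 0.526% and 0.328% at 1000 UMIs, 1.87% and 1.0% at 2000 UMIs, 7.04% and 3.61% in cells with 1000 or more genes, and 1.94% and 0.451% with 2 or more *Hoxa9* UMIs. Co-detection over the product in the WT-labelled library was 1.24 with 1 stratum.

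Genes higher and lower in both libraries, 4 and 6, numbered 43 and 62 without matching, 32 and 49 thinned to 1000 UMIs, 63 and 136 thinned to 2000, 29 and 34 with 2 or more *Hoxa9* UMIs, 377 and 944 with no filter and 2 and 2 at 100 CPM or more. Higher genes were 13 with 1 matched cell, 7 in cells with 1000 or more genes and 2 with weighting. Lower genes were 10 with per-cell scaling and 14 without the deepest cells. Of the 4 and 6, 0 and 4 were called again at 2000 UMIs, 2 and 1 at 1000, 1 and 3 without matching, 1 and 6 with weighting, 2 and 2 with per-cell scaling, 2 and 3 without the deepest cells, 4 and 3 with 1 matched cell, 3 and 4 in cells with 1000 or more genes, 3 and 4 with 2 or more *Hoxa9* UMIs, and 4 and 6 with the median gene set to 1. Lists higher in both, 0, were 1 without matching and 1 with 1 matched cell. Lists lower in both, 1, were 5 without matching, 0 with 1 matched cell and 0 with 2 or more *Hoxa9* UMIs. Lists higher against *Hoxa9* alone, 1, were 2 without matching. The 1 was the erythroid list, at 0.67 (-0.26 to 1.63) and 6.34 (5.10 to 7.97). In the KO-labelled library 1 member held 98.8% of the members' UMIs of that list. The causes of these moves were not tested.

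Ratios past 1.5-fold changed sign as follows. Without matching, in the KO-labelled library, mature neutrophil genes went to -0.26, basophil genes to 1.22, *S100a8* to -0.22 and *S100a9* to -0.32, and *Kat2a* in the WT-labelled library to 0.11. With 1 matched cell, in the WT-labelled library, erythroid genes went to 1.24, megakaryocyte genes to 0.53, *Cd74* to 0.99 and *Hbb-bs* to 1.58, and in the KO-labelled library basophil genes to 0.08, *S100a10* to 0.08 and *Cd74* to 0.81. With 2 or more *Hoxa9* UMIs erythroid genes went to 1.92 (WT) and -2.98 (KO) and megakaryocyte genes to 1.29 (WT). Thinned to 1000 UMIs, MHC class II genes went to 0.03 (KO), *Bst2* to 0.13 (KO), *Cd74* to 1.58 (WT) and *Kat2a* to 0.00 (WT). Thinned to 2000, mature neutrophil genes went to -0.66 and basophil genes to 0.46 (KO). With per-cell scaling *Cd74* went to 0.71 (WT). Without the 10 richest cells basophil genes went to -0.83 and *Mcpt8* to -1.17 (WT), and *Hoxa10* to -0.80 and *S100a9* to -0.21 (KO). Among ratios under 1.5-fold, 79 of 538 repeats of lists and 102 of 683 of genes had the other sign. The MLL leukemia program stayed between 0.24 and 0.42 (WT) and between 0.08 and 0.47 (KO) in 11 alternatives, and mitotic genes between -0.52 and 0.33 (WT) and between 0.26 and 1.14 (KO). Depth limits what is seen of members: a transcript with no UMI among them could be present at up to 4.47 CPM (WT) and 15.9 CPM (KO), by counting error alone.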
